A study of Mus musculus with 6 samples.

Results

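The Notch genes described here are 3 receptors (Notch1, Notch2 and Notch3), 3 ligands (Jag1, Jag2 and Dll1) and 4 targets (Hes1, Hey1, Heyl and Nrarp), measured in 2T3 mouse pre-osteoblasts after simulated microgravity. Every probe set that the platform's probe table assigns to one of these 10 symbols was taken, which gave 19 of the 45101 probe sets on the arrays. The rotated group is 3 samples kept for 3 days in a rotating wall vessel, a culture chamber whose slow turning holds cells in near free fall and so models weightlessness on the ground. The static group is 3 samples of the same line kept for 3 days without that rotation. Both groups carry the same genotype: 2T3 is 1 clonal line from the calvaria of mice with a viral T antigen driven by the Bmp2 promoter, so no other donor or clone was sampled. Group membership follows the titles. In them the letter R was read as rotated, the design naming no condition besides static and simulated microgravity, and for static 2 and static 3 the source field contradicts the title by naming simulated microgravity. Separate cultures are not stated for the 3 samples of a group, so each p-value reflects the spread between these arrays, which may be technical.

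Notch receptors are single-pass membrane proteins that are activated by ligands of the Jagged and Delta families on a neighbouring cell. Binding exposes the receptor to an ADAM protease and then to gamma-secretase, and the freed intracellular domain enters the nucleus, where it joins the DNA-binding protein Rbpj and a Mastermind coactivator to switch on targets such as the Hes and Hey repressors. In the osteoblast lineage Notch signalling is known to hold back differentiation and to act on bone remodelling. In humans, truncating mutations of NOTCH2 cause Hajdu-Cheney syndrome with bone loss, and mutations of JAG1 cause Alagille syndrome.

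Promoter sequence was available from RefSeq (build GRCm38.p6) for 7 of the 10 genes, with 8 start sites in all; Hes1, Hey1 and Heyl were not among them. The 250 bases before each start were searched on both strands for TGGGAA, the core that Rbpj binds, for CACNAG and CACGCG, sites of Hes and Hey repressors, and for CACGTG, an E-box. TGGGAA was found in 0 of the 8 windows and in 21.6% of all 32851 promoter windows of that length. CACNAG was present in 4 of the 8 (Notch1, Notch2, Notch3 and Nrarp) and in 36.7% of all windows, CACGTG in 1 (Nrarp) and in 6.02%, and CACGCG in 3 (Jag1, Notch2 and 1 of the 2 starts of Dll1) and in 7.62%. A match describes letters and not a bound site. Below are the windows of Jag1, which holds the probe set with the smallest p among the 12 members tested, and of Notch2, a receptor whose probe sets gave like differences, with each CACGCG or its reverse complement CGCGTG in capitals. The Jag1 window is chr2:137116521-137116770 on the minus strand, with matches that begin 249 and 171 bases before the start. The Notch2 window is chr3:98013288-98013537 on the plus strand, with its match 42 bases before the start.
Jag1: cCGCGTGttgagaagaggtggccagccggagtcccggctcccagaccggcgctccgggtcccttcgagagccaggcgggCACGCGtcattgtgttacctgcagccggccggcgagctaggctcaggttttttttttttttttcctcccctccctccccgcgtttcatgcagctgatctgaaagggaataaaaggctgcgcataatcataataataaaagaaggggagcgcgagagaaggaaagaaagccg
Notch2: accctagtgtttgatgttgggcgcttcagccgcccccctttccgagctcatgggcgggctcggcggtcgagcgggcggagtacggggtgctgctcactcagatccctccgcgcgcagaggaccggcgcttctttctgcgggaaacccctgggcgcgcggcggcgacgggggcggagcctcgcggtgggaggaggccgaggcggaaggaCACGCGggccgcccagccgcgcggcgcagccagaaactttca

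The deposited intensities were taken as log2(value + 16.6) and quantile normalised, and the result is called normalised signal below. A probe set was tested where its mean normalised signal over the 6 arrays reached 5.96, the 40th percentile. The median deposited intensity was 70.0 to 130.1 per array. Rotated 1 had an actin 3' over 5' control ratio of 3.21, against 1.29 to 1.57 on the other arrays, and static 1 a 10th percentile of intensity of 22.1, against 4.5 to 7.2. Of the osteoblast lineage markers, 8 of 10 had a probe set and all 8 were tested (Runx2 and Bglap were not analysed here). Their summed normalised signal, taken back to the linear scale, was 30679 to 44779 in rotated samples and 51890 to 54165 in static samples, and all 8 were lower in value in rotated samples, with 0 called and 5 at an unadjusted p under 0.05 (over all tested genes 46.8% were lower in value and 8.24% had such a p). Of the endothelial markers 1 of 6 was tested. The sum over all 6, with those below the filter, was 152 to 223 in rotated and 176 to 266 in static samples. Of the smooth muscle and pericyte markers, cells known for Notch3 and Heyl, 3 of 5 were tested. The sum over all 5 was 1039 to 2032 in rotated and 1039 to 1134 in static samples. Of the blood and macrophage markers 3 of 5 were tested, and the sum over all 5 was 455 to 566 in rotated and 361 to 441 in static samples. These lists and those for skeletal myoblast (1 of 4), epithelial (2 of 4) and cartilage cells (3 of 4) had 0 members called. Outside the osteoblast list an unadjusted p under 0.05 was seen for Rgs5 of the pericyte list and Epcam of the epithelial list, beside 8.24% of all tested genes. On the log2 scale Rgs5 was 0.84 higher in rotated samples and Epcam stood at -0.96. The other epithelial markers ran against Epcam. Krt8 was 0.33 higher in rotated samples. Krt18 and Cdh1, below the filter, had means of 6.34 and 5.29 in rotated samples, against 5.57 and 4.70 in static samples. The part of these marker levels and of the array differences in the values below was not tested. In bulk RNA of this kind, fewer cells that express a gene and less of its RNA per cell cannot be told apart.

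No Notch gene passed the test between rotated and static samples, and the values of single genes below are measured differences. Of the 19 probe sets 12 were tested, which cover 8 of the 10 genes, and 7 were too dim, among them the only probe set of Hey1 and all 3 of Heyl. In limma 0 of the 12 had an adjusted p under 0.05, as had 0% of the 27022 probe sets tested (smallest adjusted p of the members 0.603, and 0.300 over all). At an unadjusted p under 0.05 there was 1 of 12, the Jag1 probe set 1421106_at, beside 8.25% of all tested probe sets (14.6% with the replicate number as a block, which left the members at 1). That member count was 0 without static 1, static 3, rotated 2 or rotated 3 and 2 without static 2. The 12 were split evenly, 6 higher and 6 lower in value in rotated samples (52.6% of all tested probe sets were higher), with a median log2 difference of -0.02, against 0.03 over all tested probe sets. The groups did not overlap for 2 of the 12, 1 in each direction, beside 15.1% of all tested probe sets. These counts lie near the background. The 95% interval of the difference included 0 for 11 of the 12, and its median half-width was 0.93 on the log2 scale, so the intervals leave room for differences of that size.

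**Figure D1:**
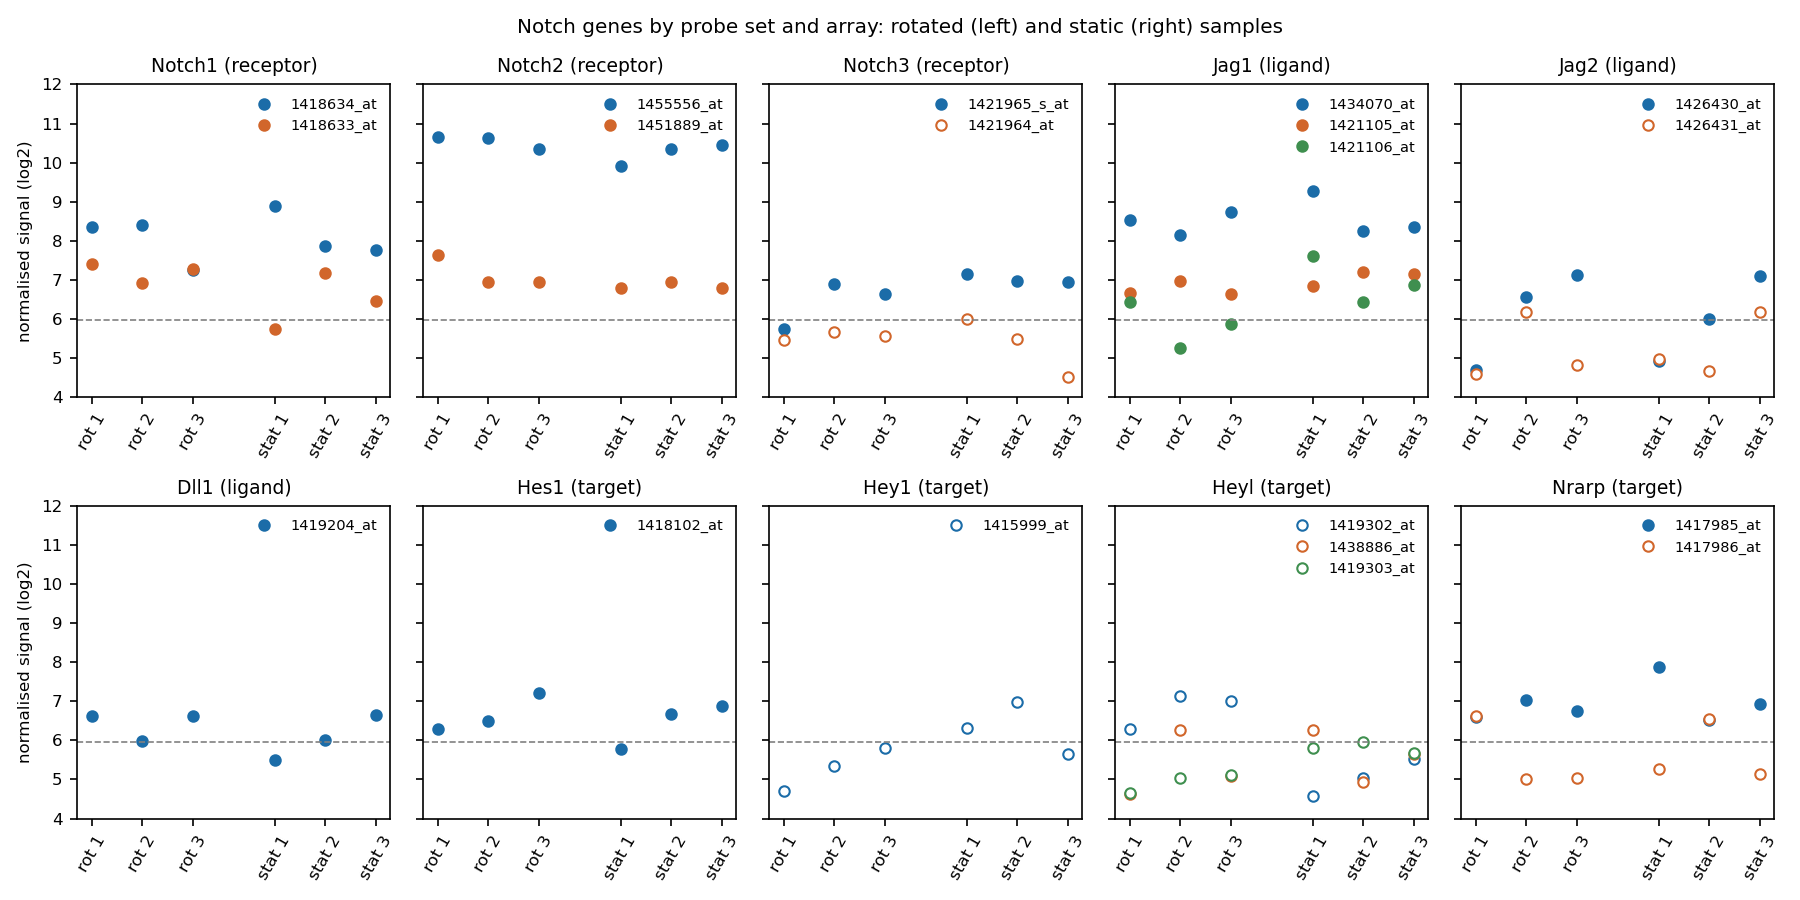
Normalised signal (log2, vertical axis) of each of the 19 probe sets on every array, with 1 panel per gene, rotated samples (rot) on the left and static samples (stat) on the right; filled points are tested probe sets, open points those below the filter, and the dashed line is the filter at 5.96. Most points lie within 2 log2 units of the dashed line, 1455556_at of Notch2 stays near 10 in all 6 samples, and the Heyl probe sets 1419302_at and 1419303_at separate the groups in opposite directions.

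Among the receptors, Notch2, the receptor whose human truncations cause bone loss, gave 2 tested probe sets that were both higher in value in rotated samples. For 1455556_at the normalised signal was 10.65, 10.63 and 10.35 in rotated 1, 2 and 3, against 9.92, 10.34 and 10.45 in static 1, 2 and 3. The groups overlapped, static 1 being the lowest array, and the difference was 0.30 ± 0.23 (log2 difference, rotated minus static, ± SE with 3 arrays a group; limma adjusted p 0.693; 95% interval -0.20 to 0.81). For 1451889_at the values were 7.62, 6.94 and 6.95 in rotated samples and 6.79, 6.94 and 6.80 in static samples. Rotated 1 stood above the rest, and the lowest rotated value exceeded the highest static one by 0.005 (rotated 2 minus static 2). The difference of 0.33 ± 0.33 (limma adjusted p 0.765) was 0.10 without rotated 1 and 0.08 without both arrays numbered 1. That of 1455556_at was 0.14 without static 1 and 0.09 without both arrays numbered 1.

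Notch1, a receptor required for early development and mutated in human T-cell leukaemia, had a pair of tested probe sets that pointed in different directions. The probe set 1418633_at read 7.39, 6.91 and 7.28 in rotated samples, against 5.73, 7.17 and 6.46 in static samples, a difference of 0.74 ± 0.42 (limma adjusted p 0.637, 95% interval -0.21 to 1.70). The rotated arrays lay close together and the static ones were spread over more than 1 log2 unit, with static 1 lowest; without static 1 the difference was 0.38. The brighter 1418634_at read 8.35, 8.39 and 7.24 in rotated samples and 8.89, 7.87 and 7.77 in static samples, a difference of -0.18 ± 0.42 (limma adjusted p 0.905). Its highest and its lowest array belonged to different groups, static 1 and rotated 3, while the other 4 fell between them.

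Notch3, the receptor of mural cells and smooth muscle, was lower in value in every rotated sample on its tested probe set. The signal of 1421965_s_at, where the suffix marks probes that may match more than 1 transcript, was 5.75, 6.89 and 6.63 in rotated samples and 7.14, 6.96 and 6.95 in static samples. The 3 static values were tightly grouped and lay above all rotated ones, of which rotated 1, whose actin ratio was 3.21, was lowest. The difference was -0.60 ± 0.39 (limma adjusted p 0.661, 95% interval -1.48 to 0.28), -0.26 without rotated 1 and -0.10 with that ratio as a covariate. The other probe set, 1421964_at, was below the filter, with 5.47, 5.66 and 5.55 in rotated and 5.99, 5.48 and 4.52 in static samples, which overlapped.

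Among the ligands, Jag1, which activates Notch2 in many tissues and is made by osteoblasts, was lower in value in rotated samples on all 3 of its tested probe sets. The signal of 1421106_at was 6.44, 5.26 and 5.87 in rotated 1, 2 and 3, against 7.61, 6.43 and 6.86 in static 1, 2 and 3. Rotated 1 and static 2 stood at the same level (6.44 and 6.43), so the groups touched, and the other rotated arrays lay below every static one. The difference was -1.11 ± 0.47 (limma unadjusted p 0.0408, adjusted p 0.603; 95% interval -2.16 to -0.06), which is 2.16-fold lower on the offset scale and understates a change at this dim level. The probe set passed the filter through the static group, where all 3 arrays lay above it, against 1 of 3 rotated arrays (mean 5.86 in rotated and 6.96 in static samples), and with no filter its unadjusted p was 0.0519. Taken by replicate number it was -1.17, -1.17 and -0.99 for numbers 1, 2 and 3, so all pairs ran the same way. With the replicate block the adjusted p was 0.280. Without static 2 the difference was -1.37 and without static 3 it was -1.16, the samples whose source field contradicts the title; over the fits without 1 array it ran from -1.40 to -0.79, with adjusted p of 0.444 to 0.996.

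The other Jag1 probe sets differed less. For 1421105_at the signal was 6.65, 6.98 and 6.63 in rotated and 6.84, 7.20 and 7.15 in static samples, a difference of -0.31 ± 0.32 (limma adjusted p 0.773) with only rotated 2 reaching into the static range. The brightest, 1434070_at, read 8.54, 8.14 and 8.74 in rotated samples and 9.28, 8.25 and 8.36 in static samples. Here static 1 was highest and the groups overlapped, with a difference of -0.16 ± 0.33 (limma adjusted p 0.896; 0.17 without static 1 and 0.01 without rotated 2). The direction of this probe set therefore rests on single arrays, while that of the other 2 was kept in every alternative that tested them.

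Jag2, a second Jagged ligand, and Dll1, a Delta ligand, were near the filter and varied more between arrays than between groups. Jag2 at 1426430_at read 4.68, 6.56 and 7.13 in rotated samples and 4.92, 6.003 and 7.10 in static samples, a difference of 0.12 ± 0.74 (limma adjusted p 0.971). In both groups the array numbered 1 was lowest and that numbered 3 highest, and the SE was the largest of the 12. Its second probe set, 1426431_at, was below the filter, between 4.59 and 6.18 in rotated and between 4.67 and 6.18 in static samples. Dll1 at 1419204_at read 6.61, 5.996 and 6.62 in rotated samples and 5.49, 6.003 and 6.66 in static samples, a difference of 0.36 ± 0.44 (limma adjusted p 0.809) that came from number 1 (1.12), the other numbers differing by -0.01 and -0.04; without static 1 it was 0.08.

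**Figure D2:**
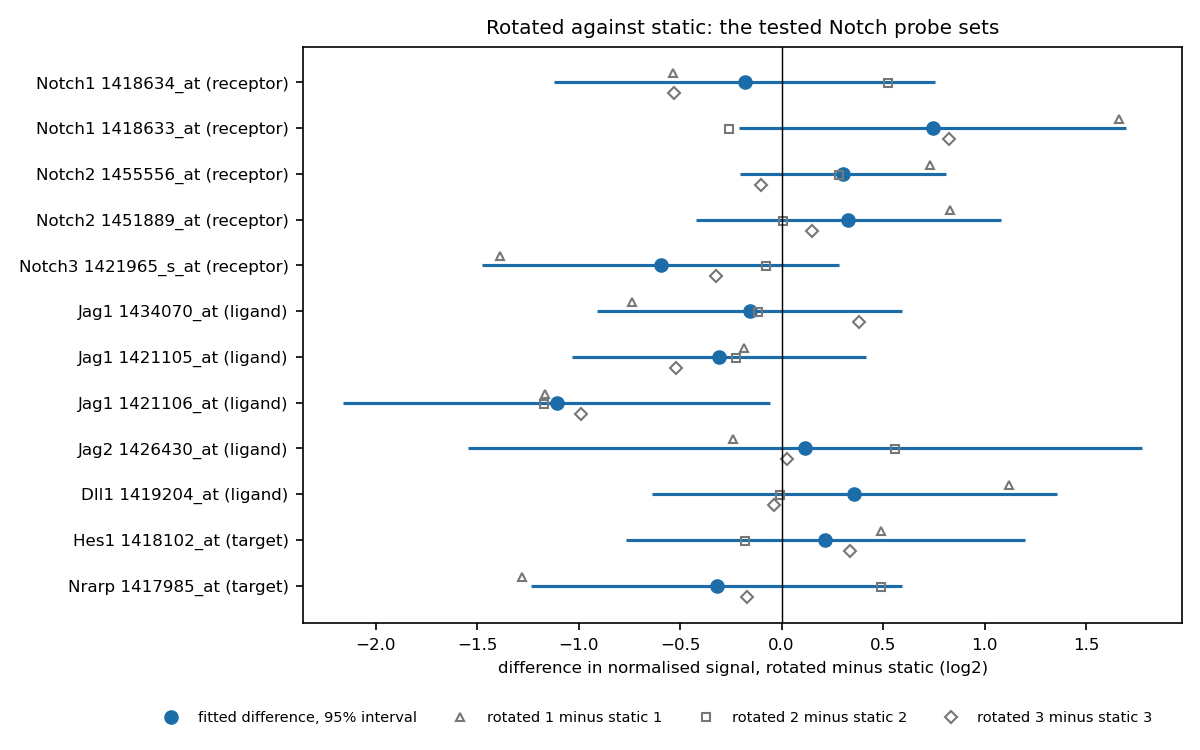
Difference in normalised signal, rotated minus static (log2, horizontal axis), of the 12 tested probe sets: filled circles with bars are limma's differences with 95% intervals (n = 3 per group), and open symbols are the differences between arrays of the same replicate number. Only the interval of Jag1 1421106_at stays on one side of 0 (-2.16 to -0.06), and for 4 of the 12 all open symbols lie on one side.

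Among the targets, Hes1, the repressor most often read as a sign of Notch activity, did not separate the groups. Its probe set 1418102_at read 6.28, 6.50 and 7.21 in rotated samples, against 5.79, 6.68 and 6.87 in static samples. The difference was 0.22 ± 0.44 (limma adjusted p 0.890, 95% interval -0.77 to 1.20) and -0.11 without static 1. Nrarp, a feedback inhibitor that binds the Notch intracellular domain complex, read 6.60, 7.02 and 6.76 at 1417985_at in rotated samples and 7.88, 6.53 and 6.93 in static samples. Static 1 was highest and static 2 lowest, so the rotated arrays lay inside the static range, and the difference was -0.32 ± 0.41 (limma adjusted p 0.814; 0.06 without static 1). The other Nrarp probe set, 1417986_at, was below the filter, with 1 array of each group well above the rest, rotated 1 (6.61) and static 2 (6.54), and the others between 5.01 and 5.26.

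Hey1 and Heyl, repressors of the Hey family that are targets of Notch and, for Hey1, of BMP signals in osteoblasts, had no tested probe set. Hey1 at 1415999_at read 4.70, 5.33 and 5.81 in rotated samples, against 6.32, 6.99 and 5.65 in static samples. All 3 rotated values lay below the filter and 2 of 3 static ones above it, and rotated 3 exceeded static 3, so the groups overlapped. Fitted without the filter the difference was -1.04 ± 0.50 (limma unadjusted p 0.0641, adjusted p 0.715). For comparison, 7.04% of all 45037 probe sets had an unadjusted p under 0.05 in that fit and 0% an adjusted p under 0.05.

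The 3 probe sets of Heyl, a Hey gene known from vascular mural cells, did not behave alike. At 1419302_at the signal was 6.28, 7.14 and 7.01 in rotated samples and 4.58, 5.03 and 5.51 in static samples, every rotated array lying above the filter and every static one below it. At 1419303_at it was 4.65, 5.03 and 5.12 in rotated samples and 5.80, 5.96 and 5.68 in static samples, every array below the filter and every rotated one below every static one. The third, 1438886_at, read 4.62, 6.27 and 5.10 in rotated samples and 6.26, 4.93 and 5.65 in static samples, which overlapped. Within an array, 1419302_at minus 1419303_at was 1.63, 2.11 and 1.89 in rotated samples, against -1.22, -0.93 and -0.16 in static samples. Fitted without the filter the differences were 1.77 ± 0.46 for 1419302_at (limma unadjusted p 0.00328, adjusted p 0.664) and -0.88 ± 0.36 for 1419303_at (unadjusted p 0.0335, adjusted p 0.704), beside 13% of all 45037 probe sets whose groups did not overlap. The mean of 1419302_at over all arrays, 5.93, lay just under the filter at 5.96. Which of these probe sets follows the Heyl transcript was not tested, and no direction is given for the gene.

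The other genes of the pathway were taken from a list of 47, of which 4 were not analysed here, 6 were below the filter and 37 were tested, each by its brightest tested probe set. In limma 0 of 37 were called, as were 0% of all 12554 tested genes. At an unadjusted p under 0.05 there were 3, all higher in rotated samples (8.11%, beside 8.24% of all tested genes). With the replicate block there were 6 of 37, beside 14.6% of all tested probe sets (8.25% without the block). Without rotated 3 there were 9 of 37, and the count over all tested probe sets was 3362 of 27022, against 2228 of 27022 with every array. Without static 1, static 2 or rotated 1 there was 1 of 37 each, and the counts over the 27022 tested probe sets were 1995, 2062 and 1091. With the mean over a gene's probe sets there was 1. In value 28 of 37 were higher in rotated samples, with a median log2 difference of 0.23, beside 53.2% and 0.03 of all tested genes. Dll3 and Hes5, counted among these 28, passed the filter through the rotated group. Across scalings and covariates 25 to 29 of 37 were higher in value, and by the mean over a gene's probe sets 24 were, beside 50.9% of all tested genes. The groups did not overlap for 7 of the 37 (18.9%, beside 15.4% of all tested genes). The mean level of the 37 relative to the static mean was 0.27, 0.14 and 0.16 in rotated 1, 2 and 3, against -0.06, 0.02 and 0.05 in static 1, 2 and 3. Rotated 1, with its actin ratio of 3.21, was the highest, and with that ratio as a covariate the median was 0.13.

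In the nuclear complex 6 of 7 tested genes were higher in value, and 4 of 7 by the mean over a gene's probe sets. Ep300, a histone acetyltransferase recruited by Mastermind, read 10.53, 10.39 and 10.32 in rotated samples, against 9.86, 9.89 and 9.97 in static samples (difference 0.51 ± 0.20, limma adjusted p 0.601), and Maml1, a Mastermind coactivator, differed by 0.57 ± 0.24 (limma adjusted p 0.603). Both genes are named for their small p, and the groups did not overlap for either. The groups did not overlap for 4 of the 7 in all, beside 15.4% of all tested genes. Of these 4, 3 were higher in value and 1, Cir1, was lower (-0.46 ± 0.25). Ep300 serves many other factors besides Rbpj. Among genes of receptor cleavage the direction turned with the choice of probe set: 6 of 8 were higher in value by the brightest one and 3 of 8 (Aph1a, Aph1b and Furin) by the mean over a gene's probe sets. Adam10, a protease that cuts the receptor, stood at 0.15 ± 0.24 on its brightest probe set and at -1.12 ± 0.46 (limma adjusted p 0.603) and -0.83 ± 0.50 on its others. Adam10, Aph1b, Cir1, Furin, Rgs5, Epcam, Krt8, Krt18 and Cdh1 are named after their values were seen. Aph1a, a subunit of gamma-secretase, stood at 0.93 ± 0.54 on its brightest probe set, 0.43 without rotated 1, 1.60 without rotated 3, 0.60 without static 3 and 0.13 with the actin covariate, with 1 other probe set of the opposite sign. Psen2, another subunit, stood at 0.45 ± 0.36, 0.06 without rotated 1 and 0.72 without rotated 2, against -1.55 ± 0.68 on its dimmer probe set. That dimmer probe set had a mean of 5.23 in rotated and 6.78 in static samples, so it passed the filter through the static group. Its groups overlapped, and static 1 was its highest array (8.23). Among glycosylation genes 3 of 4 were higher. The fringe glycosyltransferases, which tune ligand choice, stood apart in sign, Lfng at -0.84 ± 0.41 and Rfng at 0.33 ± 0.21.

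Among the other ligands 1 of 3 was higher in value. Dll3, a ligand known to inhibit Notch within the cell, stood at 0.93 ± 0.58 (1.51 without static 2). The mean signal of Dll3 was 6.56 in rotated and 5.63 in static samples, so it passed the filter through the rotated group. Dlk2, a noncanonical ligand, stood at -0.75 ± 0.36 with groups that did not overlap, but by replicate number it was -1.85, -0.08 and -0.32, and it was -0.46 without rotated 1, -0.48 without static 1 and -0.20 without both. The endothelial receptor Notch4 stood at 0.23 ± 0.41 (-0.01 without static 2). Of the 5 other genes listed as targets 3 were tested, and all 3 were higher in value. Hes5 stood at 0.88 ± 0.50, with a mean of 6.43 in rotated and 5.56 in static samples. Hes6, which opposes Hes1, stood at 0.72 ± 0.63. For Hes5 and Hes6 static 1 was the lowest array, and without it the difference of Hes5 was 0.46. For Hes6 it read 4.82, against 7.26 or more in the other static samples. Without static 1 the difference of Hes6 was -0.11. Of the turnover genes 8 of 11 were higher in value, among them the Deltex ubiquitin ligase gene Dtx2, at 10.25, 9.87 and 9.41 in rotated samples and 9.19, 9.32 and 9.06 in static samples (0.65 ± 0.27, limma adjusted p 0.603). The difference of Dtx2 was 0.44 without rotated 1 and 0.33 with the actin covariate. Its other tested probe set stood at 0.20 ± 0.31. Neurl1a, a ubiquitin ligase that acts on ligands, stood at -0.85 ± 0.40 (-0.45 without rotated 1 and -0.21 with the actin covariate). Of the 3 other tested probe sets of Neurl1a, 2 had the opposite sign. The dimmer of these 2 stood at 1.11 ± 0.57. Its mean was 6.56 in rotated and 5.45 in static samples, so it passed the filter through the rotated group. The brighter stood at 0.64 ± 0.52, and static 1 was its lowest array (5.08, against 7.08 and 6.35 in static 2 and 3).

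**Figure D3:**
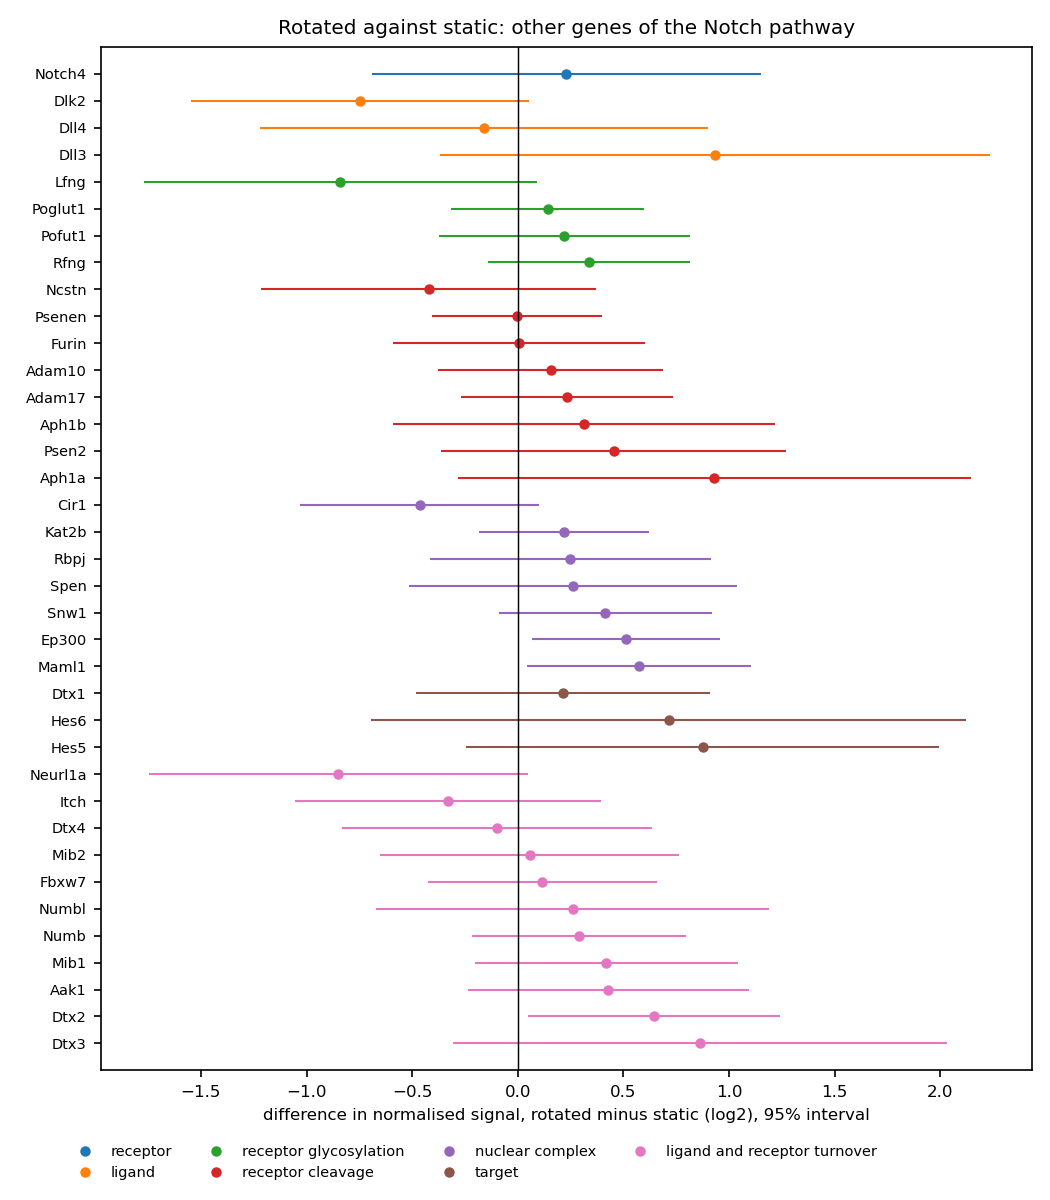
Difference in normalised signal, rotated minus static (log2, horizontal axis), of the 37 tested genes of the wider Notch pathway, 1 probe set per gene with limma's 95% interval (n = 3 per group), coloured by role. More points lie right of 0 (28) than left (9), and the intervals that exclude 0 are those of Ep300, Maml1 and Dtx2.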

How the data were processed

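Total RNA of 6 samples, 3 rotated and 3 static, was hybridised to 1-colour Affymetrix arrays, per the labels. Each deposited value is the linear intensity of a probe set on an array. The 2% trimmed mean was 500.0 on every deposited array, so the authors had scaled each to a common target; the summary software is not given in the sources used here. No detection calls entered the analysis and no value is a bound, and the number of arrays limits the precision.

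Values were transformed as log2(value + 16.6), with the 20th percentile of all values as the offset, which understates differences of dim probe sets. Because medians differed by 85.9% between arrays (tolerance 10%), quantile normalisation followed. The 64 control probe sets and those with a mean below the 40th percentile (5.96) were left out. Of the 45037 other probe sets 34945 had 1 symbol in the platform's probe table (updated through RefSeq, GRCm38.p6), 932 several and 9160 none. The comparison used limma 3.58.1 under R 4.3.3 (eBayes with an intensity trend, two-sided, Benjamini-Hochberg over 27022 probe sets, threshold 0.05). The fit was also run on simulated data with independent noise on each array and no effect of replicate number. The outcome of that run is not given here, and it does not cover arrays that deviate together. A pathway gene was represented by its brightest tested probe set. Named were every member probe set and the 2 pathway genes with the smallest p in each role.

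Same-numbered samples deviated together (correlation of deviations from the group means 0.196, 0.313 and 0.334, against -0.19 to -0.09 for other pairs), so the numbers may pair the samples; what a number stands for is not stated. Blocked values stand beside the counts and, among single genes, only beside the Jag1 probe set with the smallest p. The block also changed the SE and p of other genes. With the block Aph1a had an SE of 0.28 and a limma unadjusted p of 0.0133 (adjusted p 0.271), against 0.54 and 0.117 without it. Neurl1a had an SE of 0.25 and a limma unadjusted p of 0.0118 (adjusted p 0.264), against 0.40 and 0.0606 without it. The alternatives tried were values as deposited, median centring, 2 other offsets, no filter and a stricter one, no intensity trend, array weights, robust eBayes, the actin ratio as a covariate, the replicate block, the mean over a gene's probe sets, and leaving out arrays. The members, the lists and the alternatives were chosen with earlier results of these data known.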

Additional observations from a re-analysis of the deposited data

How the results depend on the processing

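No member probe set and no pathway gene had an adjusted p under 0.05 in any alternative. Over all probe sets 22 passed with array weights and 2 with the replicate block. The count of all probe sets at an unadjusted p under 0.05 was 2228, and it was 1351 with median centring, 5148 with array weights, 3957 with the replicate block and 702 with the actin covariate, and 1091 to 3362 over the fits without 1 array. That of the members was 1, and 0 with the values as deposited and with the stricter filter, 2 with no filter, and 0 to 2 without 1 array (0 without static 1, static 3, rotated 2 or rotated 3). That of the pathway list was 3, and 0 with median centring, 8 with array weights, 6 with the replicate block, and 1 with the actin covariate, with both arrays numbered 1 left out or with the mean over a gene's probe sets; it was 1 to 9 without 1 array. Fewer arrays or probe sets entered some of these fits; the cause of the other shifts was not tested.

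The members' median difference of -0.02 was -0.15 with the values as deposited, -0.16 with the stricter filter and 0.078 without both arrays numbered 1, and -0.15 to 0.071 without 1 array. The pathway median of 0.23 was 0.37 with median centring, which moves the median of all tested probe sets to 0.10, 0.16 with array weights, 0.13 with the actin covariate and 0.16 without both arrays numbered 1, and 0.18 to 0.27 without 1 array.

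Of the 12 tested member probe sets 5 kept their direction in every alternative that tested them, and 20 of 207 values had the other sign. With array weights these were Notch1 1418634_at (0.26), Jag2 1426430_at (-0.22), Dll1 (-0.23), Hes1 (-0.12) and Nrarp 1417985_at (0.0029). Without both arrays numbered 1 they were Jag1 1434070_at (0.13), Dll1 (-0.021) and Nrarp 1417985_at (0.16). With the actin covariate Notch2 1451889_at stood at -0.0082, and with the values as deposited Jag2 1426430_at at -0.075. Among the named pathway genes Hes6 stood at -0.041 without both arrays numbered 1 and Psen2 at -0.15 with the actin covariate. Over the fits without 1 array the value ran from -0.38 to 0.20 for Notch1 1418634_at, -0.35 to 0.17 for Jag1 1434070_at, -0.43 to 0.84 for Jag2 1426430_at, -0.11 to 0.43 for Hes1, -0.61 to 0.062 for Nrarp 1417985_at, -0.010 to 0.44 for Notch4 and -0.11 to 1.15 for Hes6. Dim signal limits most members: 8 of the 12 tested probe sets had a mean under 7 on the log2 scale, with the filter at 5.96.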

Other observations

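The tested genes whose profile over the 6 arrays lay closest to that of a member were found by the root-mean-square gap between mean-centred normalised log2 signals. This is a description over 6 arrays that share 2 groups. For Jag1 1421106_at the closest were Ppbp, a platelet chemokine (gap 0.13), Rbm27, an RNA-binding protein gene (0.19), and Pitpnc1, a phosphatidylinositol transfer protein gene (0.19). Like Jag1 they were lowest in rotated 2 or rotated 3 and highest in static 1. For Notch1 1418633_at the closest were Sgsh, a lysosomal sulfatase gene (gap 0.08), Auts2 (0.09) and Uba7, the activating enzyme of ISG15 conjugation (0.11). Like Notch1 each was lowest in static 1, the array whose 10th percentile of intensity was 22.1. Many other tested probe sets also lay close to Notch1 1418633_at, and fewer to Jag1 1421106_at, so the likeness is not particular to the genes named.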
